A study of Mus musculus with 8 samples.

Results

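The genes of glycolysis and of the response to low oxygen were examined in whole embryonic mouse kidneys taken at E13.5. They were chosen by name, from a list of 39 symbols that covers glucose entry, the enzymes of glycolysis, the handling of pyruvate and lactate, the oxygen-sensing machinery and known targets of that machinery. The deposited table of 23337 genes held 38 of them, and all 38 had a mean normalised read count of at least 10 over the 8 libraries, so none was lost to the filter on low values. The table has no row named Pkm and lists pyruvate kinase under the older symbol Pkm2, whose values are given beside the others and enter none of the counts.

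RNA was sequenced from 4 control and 4 mutant kidney samples on a mixed C57BL/6 background. Mutants, Foxd1Cre;Smo(flox/-), had Foxd1Cre, a Cre active in the stromal progenitor lineage, and 1 floxed and 1 null copy of Smo, the gene of the hedgehog signal transducer Smoothened. Controls, Smo(flox/+), carried 1 floxed and 1 wild type copy of Smo, and their labels name no Cre. All mutant cells therefore lacked 1 functional copy of Smo, and the stromal lineage was meant to lose the other, so a difference belongs to the whole genotype. Samples are numbered 1 to 4 in each group. Whether each is a separate embryo is not stated, and p-values then reflect no more than the spread among these samples.

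Glycolysis splits glucose into pyruvate, and lactate dehydrogenase can turn that pyruvate into lactate, which leaves the cell through monocarboxylate transporters. When oxygen is low, the hypoxia-inducible factors HIF-1 alpha and HIF-2 alpha escape prolyl hydroxylation and destruction, pair with ARNT and raise transcription of most glycolytic genes together with genes of mitophagy, collagen hydroxylation and growth restraint. Nephron progenitors of the embryonic kidney are known for a high rate of glycolysis, and the early organ is poorly supplied with blood.

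Libraries held 10288191 to 13494079 reads in genes, and 13692 genes were tested. Smo stood between 2152 and 2294 in controls and between 509.1 and 552.9 in mutants, so each library matched its label. Markers of nephron progenitors, ureteric epithelium and stroma were present in all 8 libraries, as the tissue label requires. By Xist and the Y-linked gene Ddx3y, 2 libraries were male, control 4 and mutant 2, and 6 were female, so the samples of a group were not all from 1 embryo. The summed level of 10 skeletal muscle markers was 3980 in control 2 and 2680 in mutant 2, and 741.8 to 1209 in the other libraries. Values with ± are the mean and SD of 4 libraries, in normalised read counts. A log2 fold change is the mutant minus the control mean of log2(normalised count + 1), fitted with limma, and adjusted p-values are Benjamini-Hochberg values over all 13692 genes.

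Most glycolytic genes had slightly higher means in the mutants, and 1 member passed the test. Bnip3l, which encodes a mitophagy receptor of the outer mitochondrial membrane, rose by 12.8% in the mutants. Of the 38 members 1 was called higher and 0 lower, where 0.124% of all tested genes were called higher and 0.446% lower. An unadjusted p under 0.05 was reached by 14 members, all with higher means in mutants, against 3.53% of all genes in that direction and 5.17% in the other, in which 0 members lay. The lowest mutant library lay above the highest control library for 8 members, and 2.31% of all genes did the same. No member had all mutants below all controls, which 3% of all genes had. The median log2 fold change of the members was 0.12, and 31 of 38 (81.6%) were above 0, while over all tested genes the median was 0.0037 and 51.9% were above 0. These are whole kidneys, in which a change in the number of cells of a type and a change in RNA per cell cannot be told apart.

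**Figure D1:**
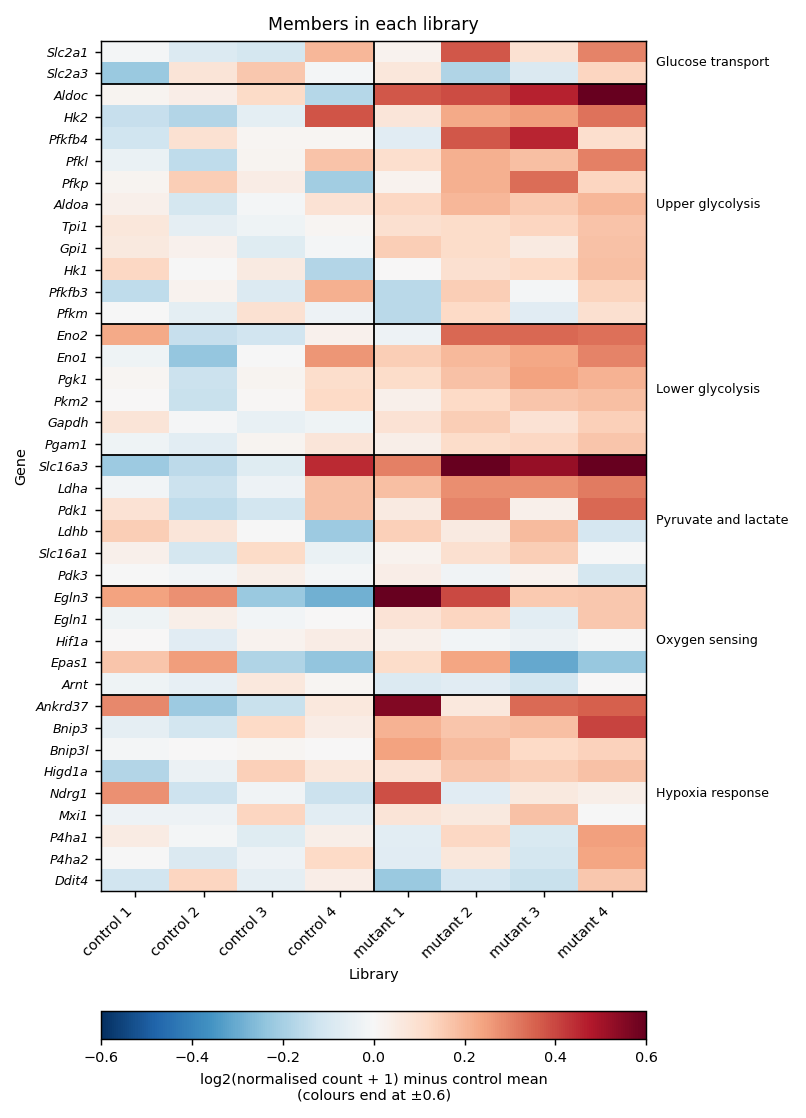
Each row is a gene and each column a library, with colour for log2(normalised count + 1) minus the mean of the 4 controls, ordered by role and then by fold change. The mutant columns are mostly red in the glycolytic rows, control 4 is red in several of the same rows (Slc16a3, Hk2, Eno1), and the oxygen-sensing rows show no common direction.

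The controls of Bnip3l were very even. Its normalised counts were 2695, 2729, 2739 and 2722 in controls 1 to 4 and 3215, 3105, 2961 and 2996 in mutants 1 to 4. The 4 controls differed by less than any mutant differed from them, and the groups did not overlap. Means were 2721 ± 18.9 and 3069 ± 115 (log2 fold change 0.17, SE 0.033, adjusted p = 0.0469). Leaving out 1 library ended the call in 7 of 8 fits, with adjusted p up to 0.158 without mutant 2, and it passed without control 4 (adjusted p = 0.0401). Adjusted p was 0.0475 with edgeR's quasi-likelihood test, 0.0504 with TMM scaling of the reads and 0.06 without a filter on low values. With limma it was 0.0638 with the sex of the library as a term and 0.102 among the female libraries. With DESeq2 on the recovered reads it was 0.00172, and the authors' deposited table lists Bnip3l at 0.09955. Bnip3l, on chromosome 14 from 66985239 to 67008877 of GRCm38, is also a gene of maturing red cells. The summed level of 9 erythroid markers was 13806, 7915, 11309 and 12240 in controls 1 to 4 and 17387, 13755, 8076 and 10628 in mutants 1 to 4. Among the mutants the sum and Bnip3l had the same order, falling from mutant 1 through mutants 2 and 4 to mutant 3. Among the controls, control 1 had the highest sum and the least Bnip3l. Mutant 3 had a lower sum than 3 controls and more Bnip3l than every control. Of these markers Hba-a1 was listed at 0 in every library, and the groups overlapped in the sum but not in Bnip3l. The part of red cells in the Bnip3l difference was not tested.

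Bnip3, the close relative of Bnip3l and a standard target of HIF-1, showed a difference of similar size that did not pass. Counts were 389.6, 374.2, 438.9 and 417.4 in controls 1 to 4 and 467.9, 453.7, 458.1 and 535.9 in mutants 1 to 4. The groups did not overlap, but control 3 lay close under the lower 3 mutants, and mutant 4 stood above the rest. The log2 fold change was 0.24 (SE 0.071, adjusted p = 0.231), from means of 405 ± 28.8 and 479 ± 38.5. Bnip3 shares 22.3% of its annotated exon bases with the antisense gene Gm45507, and without strand in the counting the reads of such a pair cannot be told apart.

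Ldha and Slc16a3, which make and export lactate, had the clearest differences among the genes at the end of glycolysis. Ldha encodes the lactate dehydrogenase subunit that favours lactate production. Its counts were 7423, 6853, 7341 and 8487 in controls 1 to 4 and 8496, 9110, 9110 and 9316 in mutants 1 to 4. Control 4 reached almost the level of mutant 1, and the other controls lay well below every mutant. Means were 7526 ± 689 and 9008 ± 355, and the log2 fold change was 0.26 (SE 0.057, adjusted p = 0.083). Leaving out control 4 brought the adjusted p of Ldha to 0.00365, while the 7 other single omissions left it above the threshold, at up to 0.259. The authors' deposited table lists Ldha at an adjusted p of 0.0362, and it is the only member below 0.05 there. Of the genes with a p-value in the authors' deposited table, 0.126% were higher at that threshold and 0.488% lower, and 0 members were lower.

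Slc16a3 encodes the monocarboxylate transporter MCT4, an exporter of lactate. It had the largest fold change of the members, with means of 270 ± 62.5 in controls and 392 ± 49.4 in mutants, 45.1% apart. Controls 1 to 4 stood at 228, 237.8, 252.9 and 362.9 and mutants 1 to 4 at 327.5, 439.8, 382 and 419.9. Control 4 lay above mutant 1, so the groups overlapped through this pair of libraries alone. The log2 fold change was 0.55 (SE 0.14, adjusted p = 0.142), without control 4 it was 0.70 (adjusted p = 0.00727), and without any other single library adjusted p was up to 0.365. With the sex of the library as a term, 2 members were called higher (Slc16a3 and Ldha) and 0 lower, against 0.11% and 0.387% of all genes. Among the 6 female libraries 3 were higher (the same pair and Hk2) and 0 lower, against 0.263% and 0.803%.

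**Figure D2:**
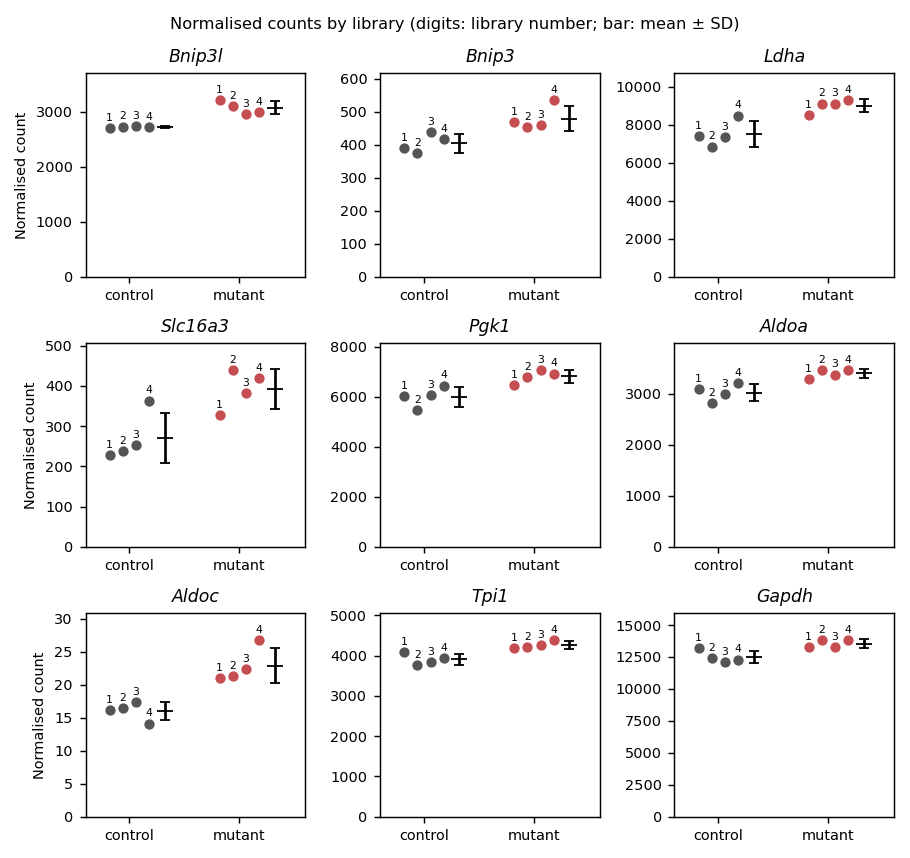
Normalised counts (vertical axes, from 0) of the 8 members whose groups did not overlap and of Slc16a3, with 1 point per library, the library number above it, and the mean ± SD beside each group. Control 4 is the highest control for Ldha, Slc16a3, Pgk1 and Aldoa, and the Bnip3l controls lie almost on 1 line.

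The other genes of the pyruvate branch differed less. Ldhb, the subunit that favours the reverse reaction, was at 1702 ± 181 and 1787 ± 154 (log2 fold change 0.07, adjusted p = 0.883), and libraries ranged from 1455 in control 4 to 1934 in mutant 3. Control 4 was thus the lowest of all libraries for Ldhb, whereas it was the highest control for Ldha. For Slc16a1, which encodes the more widely expressed transporter MCT1, the log2 fold change was 0.07 (adjusted p = 0.815, range 1386 to 1652). Pdk1 and Pdk3 encode kinases that switch off pyruvate dehydrogenase. Pdk1 was at 695 ± 75.7 and 790 ± 89.5 (log2 fold change 0.18, adjusted p = 0.628), with its 3 highest values in mutant 4, mutant 2 and control 4. Pdk3, on the X chromosome, was at 653 ± 10.5 and 646 ± 28.3 (log2 fold change -0.02, 95% interval -0.12 to 0.08).

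All 5 members of lower glycolysis had higher means in mutants, with log2 fold changes from 0.11 to 0.25. Pgk1 encodes phosphoglycerate kinase, which makes the first ATP of the pathway. Pgk1 was at 6037, 5477, 6069 and 6446 in controls 1 to 4 and at 6479, 6784, 7084 and 6933 in mutants 1 to 4. The highest control, control 4, and the lowest mutant, mutant 1, were almost level, and the groups did not overlap. The log2 fold change was 0.18 (SE 0.048, adjusted p = 0.147, 0.0339 without control 4 and up to 0.416 without another library). Pgk1 is X-linked, from 106187100 to 106203699, and the male control 4 lay above the 3 female controls, while the male mutant 2 lay among the female mutants.

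Gapdh, the glyceraldehyde phosphate dehydrogenase often used as a reference gene, was at 13176, 12415, 12112 and 12289 in controls and at 13266, 13850, 13270 and 13804 in mutants. The groups did not overlap, with control 1 just below mutants 1 and 3. The means were 8.4% apart, and the log2 fold change was 0.12 (SE 0.0335, adjusted p = 0.213). Among its near copies in the annotation the table lists the pseudogene Gm12070 at a mean of 331, which is 99.9% identical over 70.6% of the Gapdh transcript, so part of the Gapdh reads may be counted there.

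Pgam1, phosphoglycerate mutase, was at 5360 ± 219 and 5777 ± 216 (log2 fold change 0.11, adjusted p = 0.377), with mutant 1 as the single mutant below the highest control. Eno1, the main enolase, ranged from 1163 in control 2 to 1641 in control 4 and from 1516 to 1682 in the mutants. Its log2 fold change was 0.22 (adjusted p = 0.427, 0.0291 without control 4 and up to 0.741 without another library). Eno1 has a near copy, Eno1b, that is 99.5% identical over 85.6% of its transcript, and its level is uncertain to that extent. The neuronal enolase gene Eno2 was low (53.9 ± 6.6 and 64.2 ± 7.8), and its log2 fold change was 0.25 (adjusted p = 0.724). The row Pkm2, the pyruvate kinase that ends glycolysis, was at 12384 ± 888 and 13499 ± 622 (log2 fold change 0.13, adjusted p = 0.49), with control 4 and mutant 2 level at 13442 and 13446.

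In upper glycolysis 10 of 11 members had higher means in mutants, with a median log2 fold change of 0.17. Aldoa, the main aldolase, was at 3092, 2812, 2996 and 3207 in controls 1 to 4 and at 3293, 3466, 3376 and 3473 in mutants 1 to 4. No mutant fell into the range of the controls, and control 4 was again the highest control. The log2 fold change of Aldoa was 0.17 (SE 0.041, adjusted p = 0.123, 0.0322 without control 4 and up to 0.332 without another library). Tpi1, triose phosphate isomerase, was at 4097, 3762, 3839 and 3934 in controls and at 4179, 4219, 4271 and 4397 in mutants. Here control 1 was the highest control, the groups did not overlap, and the log2 fold change was 0.13 (SE 0.034, adjusted p = 0.169).

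Aldoc, the aldolase of brain, was near the lower limit of what was tested. Counts were 16.2, 16.5, 17.4 and 14.1 in controls and 21, 21.3, 22.4 and 26.8 in mutants. The groups did not overlap although each value rests on few reads, and the interval was wide (log2 fold change 0.48, 95% interval 0.04 to 0.93, adjusted p = 0.509). An exact two-sided permutation test of a single gene gives p = 0.0286 wherever the groups do not overlap, the smallest that 4 libraries against 4 allow. The 8 members without overlap have this value by that choice, and it adds nothing to the lack of overlap.

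Gpi1, glucose phosphate isomerase, was at 2910, 2848, 2663 and 2776 in controls and at 3095, 3016, 2909 and 3163 in mutants. Mutant 3 was level with control 1, and the other mutants lay above all controls (log2 fold change 0.12, SE 0.038, adjusted p = 0.279). Phosphofructokinase, the committed step, has 3 subunit genes. Pfkl, the liver type, was at 1833, 1696, 1904 and 2123 in controls and at 2020, 2184, 2137 and 2324 in mutants. Control 4 lay above mutant 1, and the log2 fold change was 0.20 (SE 0.064, adjusted p = 0.296, 0.0401 without control 4 and up to 0.612 without another library). Pfkp, the platelet type, ranged from 95 to 138.9 (log2 fold change 0.17, adjusted p = 0.754). The muscle type Pfkm was at 657 ± 30 and 656 ± 60.8 (log2 fold change -0.0052, 95% interval -0.15 to 0.14). Pfkm thus showed no direction, and its sign was positive with upper quartile scaling.

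Of the hexokinases, which trap glucose in the cell, Hk2 is the HIF-responsive form. Hk2 was at 845 ± 161 in controls and 973 ± 69.9 in mutants, and control 4 (1083) was the highest library of all. With all libraries the log2 fold change was 0.22 (adjusted p = 0.621), and without control 4 it was 0.34 (adjusted p = 0.0202). Without control 2 the log2 fold change of Hk2 was 0.16 (adjusted p = 0.873), and without controls 1 and 2 it was 0.06 (adjusted p = 0.914). Hk1, the widely expressed form, was at 850 ± 74 and 909 ± 46.9 (log2 fold change 0.10, adjusted p = 0.77), and control 4 was its lowest library (749.3). Without control 4 the value for Hk1 was 0.04 (adjusted p = 0.793). Pfkfb3 and Pfkfb4 set the level of fructose 2,6-bisphosphate, the activator of phosphofructokinase. Pfkfb3 was at 441 ± 49.8 and 449 ± 44.2 (log2 fold change 0.03, adjusted p = 0.967). Pfkfb4 was at 97.1 ± 5.8 and 114 ± 18.8 (log2 fold change 0.22, adjusted p = 0.725), with mutants 2 and 3 above all other libraries.

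Glucose enters through the transporters GLUT1 and GLUT3. Slc2a1, which encodes GLUT1, was at 741.7, 705, 694.6 and 859.3 in controls and at 759.2, 969.1, 796.4 and 920.4 in mutants. Mutants 2 and 4 exceeded all controls, mutants 1 and 3 lay below control 4, and the log2 fold change was 0.20 (SE 0.087, adjusted p = 0.551). Slc2a3, which encodes GLUT3, was at 141 ± 15.8 and 139 ± 13.7 (log2 fold change -0.02, adjusted p = 0.982).

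**Figure D3:**
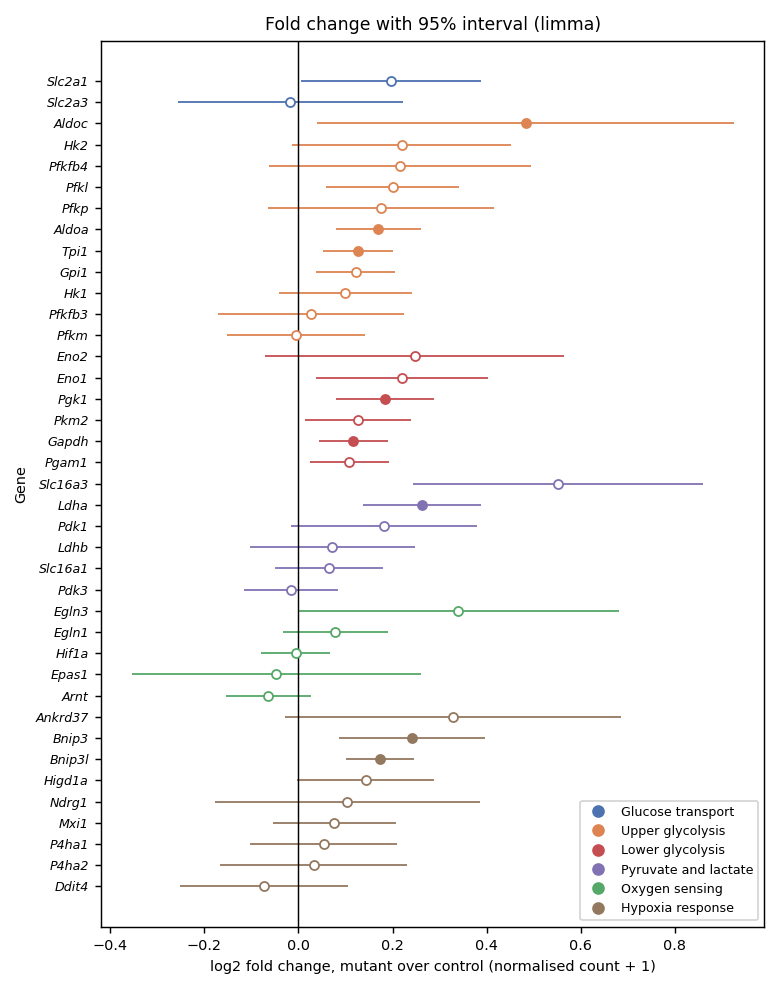
Points are log2 fold changes of mutant over control (horizontal axis) for the 38 members and Pkm2, with 95% intervals from limma before adjustment, coloured by role. Filled points mark the 8 members whose groups did not overlap, and 31 of the 38 members lie to the right of 0.

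The oxygen-sensing genes themselves gave no call. Hif1a, the gene of HIF-1 alpha, was at 2982, 2836, 3015 and 3070 in controls and at 3042, 2938, 2902 and 2970 in mutants. All 4 mutants lay within the range of the controls, and the estimate of -0.0057 (log2 fold change) had a 95% interval from -0.08 to 0.07, with a sign that was positive under upper quartile scaling. HIF-1 alpha is controlled mainly by the stability of its protein, which RNA does not show. Arnt, the partner of both factors, was at 1095, 1079, 1164 and 1124 in controls and at 1054, 1065, 1032 and 1118 in mutants. Mutants 1, 2 and 3 lay below all controls and mutant 4 did not, and the log2 fold change was -0.06 (SE 0.041, adjusted p = 0.766).

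Epas1, the gene of HIF-2 alpha and strongly expressed in endothelium, showed a split by sample number that was alike in both groups. It was at 347, 368, 273.2 and 262.3 in controls 1 to 4 and at 334.2, 364.2, 249.8 and 264.2 in mutants 1 to 4. In both groups samples 1 and 2 stood above samples 3 and 4, and the log2 fold change was -0.05 (SE 0.14, adjusted p = 0.961). Egln3, the HIF-induced prolyl hydroxylase PHD3, had the same split. Its counts were 156.5, 160.2, 113.4 and 108.1 in controls and 207.2, 174.6, 147.9 and 148.2 in mutants. Mutants 1 and 2 exceeded all controls, and mutants 3 and 4 lay below controls 1 and 2. The log2 fold change of Egln3 was 0.34 (SE 0.155, adjusted p = 0.579). The summed level of 8 endothelial markers was 6289, 5985, 5576 and 5424 in controls and 5877, 5689, 4665 and 5453 in mutants, so samples 1 and 2 were the higher ones there too, and the part of endothelium was not tested. Egln1, which encodes the main oxygen sensor PHD2, was at 839.6, 876.6, 844.8 and 856.5 in controls and at 905.3, 932.9, 818.8 and 956.9 in mutants. Mutants 1, 2 and 4 exceeded all controls and mutant 3 was the lowest library (log2 fold change 0.08, SE 0.051, adjusted p = 0.773).

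Of the 9 hypoxia response members, Bnip3 and Bnip3l included, 8 had a log2 fold change above 0, against 51.9% of all tested genes. Their median was 0.10, and Ddit4 alone lay below 0. Higd1a, a mitochondrial protein that supports respiration, was at 504 ± 47.8 and 555 ± 14.8 (log2 fold change 0.14, adjusted p = 0.589), and it shares 22.5% of its exon bases with the antisense gene Gm47112. Ankrd37, a compact HIF target, was at 46.3 ± 7.5 and 58.3 ± 8.1 (log2 fold change 0.33, adjusted p = 0.628), and 22.7% of its exon bases lie within exons of Lrp2bp on the opposite strand. Ndrg1, a stress-induced cytoplasmic protein, was highest in sample 1 of both groups (139.5 and 150.9, against 105.3 to 119.9 in the others), and its log2 fold change was 0.10 (adjusted p = 0.896). The collagen prolyl hydroxylase genes P4ha1 and P4ha2 had log2 fold changes of 0.05 and 0.03 (adjusted p = 0.909 and 0.959), and mutant 4 was the highest library for both. Mxi1, an antagonist of Myc, had one of 0.08 (adjusted p = 0.812). Ddit4, the inhibitor of mTORC1 also called REDD1, was at 728 ± 54.8 and 694 ± 83.5 (log2 fold change -0.07, adjusted p = 0.883), with mutant 1 lowest (621.7) and mutant 4 highest (814.1).

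The libraries contributed unevenly to the pattern. Mutant 4 was the highest of the 8 libraries for 16 of the 38 members, and control 2 was the lowest for 14. Among the controls control 4 was the highest for 13 members and control 2 the lowest for 18, while among the mutants mutant 4 was the highest for 19 and mutant 1 the lowest for 20. The median over members of the log2 deviation from the control mean was -0.0004, -0.05, -0.0087 and 0.02 in controls 1 to 4 and 0.08, 0.15, 0.13 and 0.17 in mutants 1 to 4, so all 4 mutants lay above all 4 controls. Without control 4, 8 members were called higher (Bnip3l, Ldha, Slc16a3, Aldoa, Pgk1, Pfkl, Eno1 and Hk2) and 0 lower, against 0.402% and 0.949% of all genes in that fit. There 14 members were without overlap. Fewer libraries overlap less readily, and the share of all genes was not counted for that set of libraries. DESeq2 on the recovered reads called 5 (Bnip3l, Ldha, Slc16a3, Aldoa and Pgk1), and 0 lower, where it called 0.394% and 1.17% of all genes. edgeR called Bnip3l alone and 0 lower, against 0.124% and 0.453% of all genes.

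Marker levels of kidney compartments also differed between libraries, in part along the same order. The summed level of 8 nephron progenitor markers was 7087 to 8290 in controls and 8725 to 9290 in mutants, without overlap, with 7 of 8 fold changes above 0 and 1 called higher. Control 4 had the highest sum of the controls (8290) and control 2 the lowest (7087), and among the mutants mutant 4 was highest (9290) and mutant 1 lowest (8725), as for the members. For 8 stromal markers, 2 of them called lower, the sum was 16506 to 19790 in controls and 12561 to 16044 in mutants, with control 4 lowest and control 2 highest of the controls. In the mutants the stromal order was the other way, from 12561 in mutant 1 to 16044 in mutant 4. Sums of 8 ureteric epithelial markers were 5223 to 7097 and 5690 to 7873, highest in sample 1 and lowest in sample 4 of both groups. Sums ran for 8 macrophage markers from 545.3 to 985.1 and 349.5 to 653, and for 8 liver markers from 78 to 886.3 and 85.9 to 240.6. None of these lists had a marker at 0 in every library. Their part in the result was not tested.

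Levels can be compared between genes only per length, here as normalised counts per kilobase of annotated exon. Gapdh (3151), Pgk1 (2858), Pgam1 (2810), Pkm2 (2588) and Ldha (2498) were the 5 highest on this scale among the members and the Pkm2 row, each above at least 98.8% of tested genes. Among isozymes, Ldha was above Ldhb (1111), Aldoa (1104) far above Aldoc (5.97), Pfkl (304) above Pfkm (196) and Pfkp (8.8), and Slc2a1 (230) above Slc2a3 (19.3). Hif1a (504) was above Epas1 (55.1) and Arnt (136), and Egln1 (245) above Egln3 (57.1). For the lactate transporters the order was Slc16a1 (345) above Slc16a3 (62.3), so the gene with the largest fold change was the lesser of the pair. These isozyme orders held for the control and the mutant means alike.

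**Figure D4:**
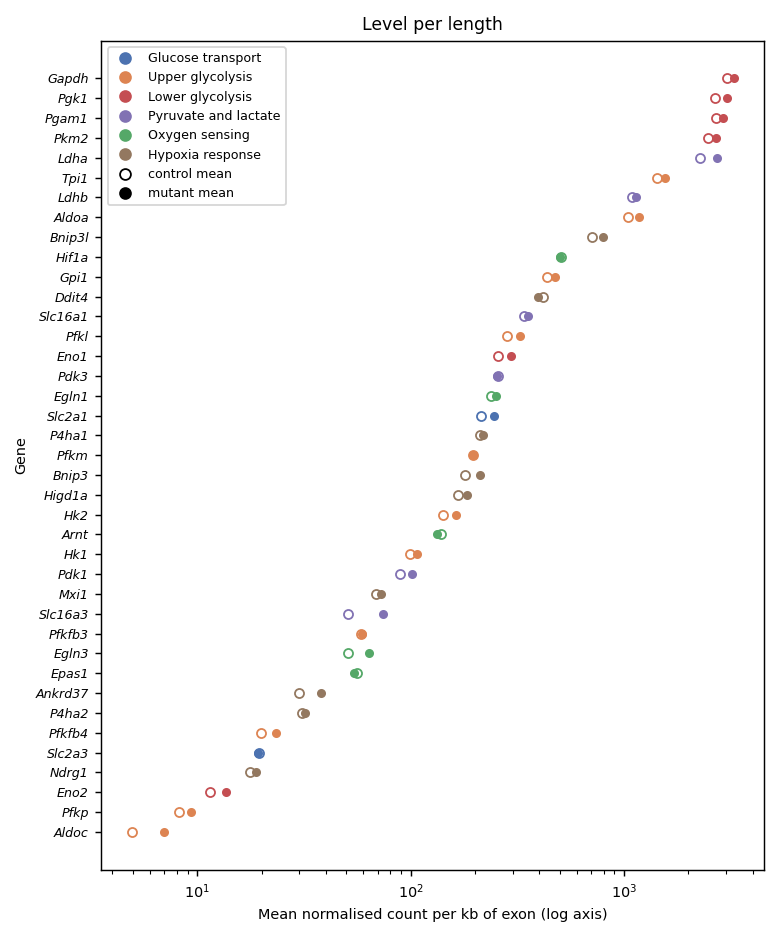
Mean normalised count per kilobase of exon on a log axis, with open points for control and filled points for mutant means, coloured by role and ordered by level. The range runs from 5.97 for Aldoc to 3151 for Gapdh (means of all 8 libraries), and the distance between open and filled points is small beside the distance between genes.

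The starts of the genes were searched for the core letters of the hypoxia response element, to which HIF dimers bind. Promoter windows of 300 bases, 250 before to 50 after a transcript start, came from RefSeq (GRCm38.p6), and 35 of the 39 genes matched, with 50 windows. The letters ACGTG or GCGTG, searched on both strands, were in 82% of the 50 windows of the members and in 43.8% of all 32851 windows. Genes with several windows, such as Pfkm with 4, count more than once. The list was made in part of known HIF targets, so the gap between these shares is not independent of that choice. Both motifs hold a CpG, and the windows of the members were richer in G and C (median 64% against 52.7%), and the part of base composition in this gap was not tested. ACGTG by itself was in 58% and 19.6%, and GCGTG in 58% and 32.4%. Promoters of 5 members without overlap between the groups are shown, 3 of them because their matches cluster (Ldha, Pgk1, Bnip3), Aldoa for its single match and Tpi1 because the letters are not in its window. Each runs 5′ to 3′ on the strand of its gene, covers the exon-free part of the 250 bases before the start, and has the matches in capitals.
Ldha, chr7:46845554-46845803, plus strand: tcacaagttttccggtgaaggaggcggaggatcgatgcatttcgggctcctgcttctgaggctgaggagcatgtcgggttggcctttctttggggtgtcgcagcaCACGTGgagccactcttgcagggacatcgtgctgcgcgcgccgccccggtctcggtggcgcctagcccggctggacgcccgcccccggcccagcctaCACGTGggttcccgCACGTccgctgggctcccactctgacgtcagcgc
Pgk1, chrX:106186850-106187099, plus strand: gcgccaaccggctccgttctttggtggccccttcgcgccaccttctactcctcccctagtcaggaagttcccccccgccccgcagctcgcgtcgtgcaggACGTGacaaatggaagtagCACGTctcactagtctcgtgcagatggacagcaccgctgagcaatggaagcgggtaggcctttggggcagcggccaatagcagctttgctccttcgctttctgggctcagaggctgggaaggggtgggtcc
Bnip3, chr7:138909520-138909756, minus strand: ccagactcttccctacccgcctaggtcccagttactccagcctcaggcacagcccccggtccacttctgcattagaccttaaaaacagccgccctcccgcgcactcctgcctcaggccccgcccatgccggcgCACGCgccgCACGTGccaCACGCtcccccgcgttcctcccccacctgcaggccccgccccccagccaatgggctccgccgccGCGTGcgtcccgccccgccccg
Aldoa, chr7:126799255-126799428, minus strand: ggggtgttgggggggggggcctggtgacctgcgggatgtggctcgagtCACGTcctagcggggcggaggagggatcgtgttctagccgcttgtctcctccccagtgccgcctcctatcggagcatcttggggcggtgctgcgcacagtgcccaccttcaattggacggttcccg
Tpi1, chr6:124814297-124814408, minus strand: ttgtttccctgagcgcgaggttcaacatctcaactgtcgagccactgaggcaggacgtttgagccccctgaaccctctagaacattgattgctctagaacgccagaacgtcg
In the Ldha stretch ACGTG was found 5 times counting both strands, because the palindrome CACGTG, which occurs there more than once, is read on each. The Pgk1 stretch held 2 matches of ACGTG, 1 on each strand, and that of Bnip3 held 2 of ACGTG and 3 of GCGTG. A match is a description of letters and says nothing of binding in these kidneys. Counting 1 window of 300 bases per gene, matches were most numerous in Ldha (7), Bnip3 (5) and Slc16a1 (5). Their log2 fold changes were 0.26, 0.24 and 0.07. A link between matches and fold change was not tested.

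Other genes of energy metabolism and hypoxia, taken as whole pathway lists, gave no call. Of 13 other regulators of HIF 13 were tested, with a median log2 fold change of -0.003 and 5 above 0. Cited2, which competes with HIF for its coactivator, had the smallest p (916 ± 27.5 and 1026 ± 44.8, log2 fold change 0.16, adjusted p = 0.171), followed by Vhl, which marks HIF for destruction (-0.13, adjusted p = 0.575). Of 24 other known HIF targets 23 were tested, and their median was -0.04, with 10 above 0, 3 at an unadjusted p under 0.05 upward and 3 downward. Ak4, a mitochondrial adenylate kinase, was at 394 ± 31.3 and 506 ± 44.5 (log2 fold change 0.36, adjusted p = 0.0784, 0.037 without control 4 and up to 0.224 without another library). Cxcr4, a chemokine receptor also expressed in nephron progenitors, was at 422 ± 36.6 and 506 ± 18.8 (0.27, adjusted p = 0.131). Vegfa, the vascular growth factor and a leading HIF target, was at 832 ± 69.7 and 798 ± 59.1 (log2 fold change -0.06, adjusted p = 0.889).

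Of 20 further glycolytic isozymes and transporters 15 were tested, with a median of 0.09 and 11 above 0. Eno3, the muscle enolase, was at 423 ± 73.7 and 558 ± 61.8 (log2 fold change 0.41, adjusted p = 0.2, 0.0239 without control 4 and up to 0.51 without another library), with its highest value in mutant 3. Of 9 tested skeletal muscle markers 1 had a fold change above 0, and the part of muscle in the Eno3 values was not tested. The 7 genes of the pentose phosphate pathway had a median of 0.03, led by Rpia (-0.135, adjusted p = 0.65) and Rpe (-0.09, adjusted p = 0.726). Of 11 genes of gluconeogenesis and glycogen 7 were tested (median 0.02), led by Gbe1 (0.17, adjusted p = 0.447) and G6pc3 (0.14, adjusted p = 0.797).

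For the mitochondrial fate of pyruvate the list medians were close to 0. In the list of pyruvate dehydrogenase and its regulators 3 of 11 were above 0 (median -0.04), led by the kinase gene Pdk2 (189 ± 10 and 157 ± 15.7, log2 fold change -0.27, adjusted p = 0.308) and the subunit gene Pdha1 (0.11, adjusted p = 0.438). The 17 citric acid cycle genes had a median of 0.03, with 16 above 0 and none at an unadjusted p under 0.05. Mdh2 had the smallest p of them (0.06, adjusted p = 0.711), then Suclg1 (0.06, adjusted p = 0.806). The 24 nuclear genes of the respiratory chain had a median of 0.02, with 19 above 0, led by Ndufa9 (0.11, adjusted p = 0.484) and Cycs (0.06, adjusted p = 0.752).

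**Figure D5:**
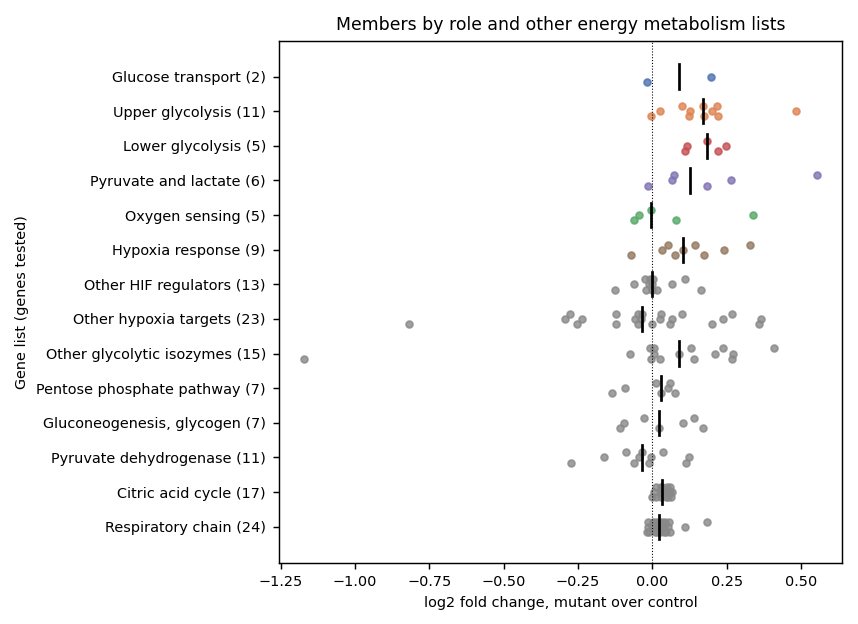
Log2 fold changes of mutant over control (horizontal axis) for the members by role (coloured) and for 8 other lists (grey), with 1 point per tested gene, a black bar at each median, and the number of genes in brackets. The medians of upper and lower glycolysis are 0.17 and 0.18. Those of glucose transport, pyruvate and lactate, and other glycolytic isozymes are 0.09, 0.13 and 0.09. The citric acid cycle and respiratory chain have 0.03 and 0.02.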

How the data were processed

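Poly(A) RNA of 4 control and 4 mutant kidney samples was sequenced from 500 ng of input per library, per the labels' protocols. The build was mm10 (GRCm38) and the tools were DESeq2 1.4.5, HTSeq and TopHat2 2.0.12, per the submitters' processing notes. Which gene annotation served for counting is unknown. The label of the deposited values includes Unstr, which points to counting without strand, though the setting itself is not spelled out. The authors deposited 1 table of signal values, which are reads per gene over a size factor of each library. It also holds the authors' fold change (ratio of means), the log2 of that fold, and their p-values before and after adjustment, which 4271 genes lack. All values (100%) were whole multiples of the library's smallest within 0.01 read, so reads were recovered.

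Values were tested as log2(value + 1) with limma 3.58.1 (R 4.3.3, prior variance trended on mean level), genotype as the only term, for genes with a mean of at least 10 (13692), two-sided, with a threshold of 0.05 on the adjusted p. The test was tried on simulated data with known changes. It recovered 40% of 50 genes changed 1.25-fold, 58% of 50 changed 1.5-fold and 90% of 50 changed 2-fold. Of its 155 calls there, 13 were false. On recovered reads, DESeq2 1.42.0 and the quasi-likelihood test of edgeR 4.0.16 with TMM were alternatives, with 214 and 79 genes called, as were pseudocounts, filters, scalings, the sample number as a block, a sex term and left-out libraries.

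The members and all lists were chosen with earlier results of these data known. Values in every library are given for members that were called or had 1 of the 10 smallest p, those without overlap between groups, and Hif1a, Epas1, Arnt, Egln1, Egln3, Slc2a1 and Gapdh. Of each other list, the called genes or the 2 with the smallest p are named. One gene that this rule names is not reported here. Vegfa was named outside this rule, after its value was seen. Exon lengths, overlaps and positions came from GENCODE vM21 (GRCm38), and near copies (at least 90% identity over 300 bases) from minimap2 2.31 on its transcripts. No pair of replicates agreed within sampling noise (chi-square over its degrees of freedom 2.9 to 10.98). Python 3.11.15 and matplotlib 3.10.9 drew the figures.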

Additional observations from a re-analysis of the deposited data

Results flagged for a closer look

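Of 78 groups of 4 values, 2 held a library far from the other 3, where chance gives about 3.9. Eno2 was at 52.52 in mutant 1 and at 67.66 to 68.33 in the other mutants. For Mxi1 control 3 gave 511.5, and the other controls lay between 447.5 and 457.9.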

How the results depend on the processing

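The members' median log2 fold change stayed between 0.11 and 0.15 in all 21 alternatives, and in each of them 30 of the 39 rows followed, Pkm2 included, kept their sign. With 1 library left out, the number of genes called over the table ran from 18 to 185, of members called higher from 0 to 8, of members without overlap from 8 to 14 higher and 0 to 1 lower, and of genes called in the other lists from 0 to 2. Members called higher were 0 without a filter on low values, 0 with TMM scaling, 0 without both libraries numbered 2, 0 without controls 1 and 2, 5 with DESeq2, 2 with the sex term and 3 among female libraries. Over the table, calls numbered 214 with DESeq2, 146 among female libraries, 2 without both libraries numbered 2 and 29 without controls 1 and 2. In the other lists 1 gene was called with DESeq2 (Ak4) and 1 among female libraries (Eno3). Members without overlap numbered 15 higher among female libraries, and 1 lower without controls 1 and 2. Groups of fewer libraries overlap less readily, and the share of all genes without overlap was not counted for any fit with libraries left out. These counts of members therefore cannot be set beside the 8 of all libraries. With the replicate number as a block, 232 genes, 4 members (Bnip3l, Ldha, Slc16a3 and Pgk1) and 2 genes of the other lists (Ak4 and Eno3) were called, against 0.453% of all genes higher and 1.24% lower. Deviations of same-numbered samples correlated at 0.325, 0.287, 0.294 and 0.064, so the numbers were not taken as pairing the samples, since the last is under 0.1. Samples 1 to 3 correlated best with their own number and sample 4 did not, a hint from the data and not from the design. Signs were opposite in these fits, all with adjusted p of at least 0.787. Upper quartile scaling gave Pfkm 0.0056 and Hif1a 0.0052. Female libraries gave Slc2a3 0.0335 and Hif1a 0.0135. Without both libraries numbered 2, values were 0.0624 for Slc2a3, -0.0068 for Pfkfb3 and -0.008 for P4ha2. Without controls 1 and 2 they were -0.0387 for Pfkfb3, 0.161 for Epas1 and -0.0109 for P4ha2. With 1 library left out, ranges that crossed 0 were -0.0922 to 0.0374 for Slc2a3, -0.0466 to 0.0478 for Pfkm, -0.0242 to 0.0975 for Pfkfb3, -0.0013 to 0.129 for Ldhb, -0.0346 to 0.0131 for Pdk3, -0.0286 to 0.0095 for Hif1a, -0.141 to 0.0399 for Epas1, -0.0115 to 0.102 for P4ha1 and -0.0359 to 0.0786 for P4ha2. The cause of these differences was not tested. Precision is set by the spread between 4 libraries a group, and for low genes such as Aldoc also by few reads.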
